A study of Homo sapiens with 18 samples.

Results

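The comparison described here sets the hypoxia response of a renal carcinoma line, RCC4+VHL, against that of a renal tubule line, HKC-8, gene by gene. All samples of either kidney line were taken, which gave 12 of the 18 RNA-seq samples in the series, and the 6 samples of the liver carcinoma line HepG2 served as a reference. HKC-8 is labelled as a kidney proximal tubule line and RCC4+VHL as renal cell carcinoma cells that carry VHL, the tumour suppressor lost in most clear cell renal carcinomas; the RCC4 titles add the word "Replacement" without explaining it. There were 4 groups of 3 samples, normoxia and hypoxia in each kidney line. The HKC-8 normoxia titles give 21% oxygen. HKC-8 hypoxia is given as 0.5% oxygen for 16 h in the labels and as 0.1% in the titles. RCC4+VHL hypoxia is given as 1% oxygen for 24 h in the labels, whereas the legend of the published RNA-seq figure gives 0.5% and 16 h for every line. Cell line, oxygen level, duration and VHL status therefore cannot be told apart in any difference between the responses. The labels call the samples triplicates without saying that they were separate cultures, so each p-value measures spread between samples that may be technical.

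The measurement was a count of uniquely mapped polyA+ RNA fragments for each of 23106 genes. HKC-8 totals were 81597396, 82353431 and 84593123 counts in normoxia and 75441764, 97984260 and 78379533 in hypoxia. RCC4+VHL totals were lower, at 49594033, 49548508 and 42045335 in normoxia and 50251580, 51794355 and 50103970 in hypoxia. Levels are given in CPM, a gene's count scaled to the library total with TMM factors. A count of 0 allows up to 3 counts. Over the library total without TMM factors, that is 0.0306 to 0.0398 CPM in the HKC-8 samples and 0.0579 to 0.0714 CPM in the RCC4+VHL samples. The TMM factors lay between 0.951 and 1.06, so 3 counts can read slightly above or below these floors in the CPM given here. The floors cover counting error only. Spread between samples was larger in HKC-8, with a biological coefficient of variation of 0.135 against 0.0439 in RCC4+VHL.

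Marker genes were read before any response. Of 18 proximal tubule markers, 6 passed the low-count filter in HKC-8 and 11 did in RCC4+VHL. Their summed level was 12.9 to 25.2 CPM in the HKC-8 samples and 492 to 519 CPM in the RCC4+VHL samples, and the peptidase gene DPP4 had the highest mean over the 6 samples of either line, 14.0 and 177 CPM. In normoxic RCC4+VHL the peptidase gene GGT1 stood higher, at a mean of 168 CPM against 148 CPM for DPP4. The organic anion transporters SLC22A6 and SLC22A8 had no count in any of the 12 samples, and 15 of the 18 markers averaged under 1 CPM over the HKC-8 samples, so most defining proximal tubule transcripts were low or absent in the line labelled as proximal tubule. In RCC4+VHL 11 averaged under 1 CPM. PAX8, a transcription factor of the kidney lineage, was abundant in both, at means of 165 and 150 CPM in HKC-8 and 133 and 121 CPM in RCC4+VHL (normoxia, then hypoxia). PAX2 was detected in RCC4+VHL, at means of 34.8 and 43.2 CPM, and stood at 0.0149 and 0.00425 CPM in HKC-8. Of the 15 kidney lineage and renal carcinoma markers, 10 passed the filter in HKC-8 and 11 in RCC4+VHL, with sums of 4556 to 5326 and 6099 to 6814 CPM led by the keratin KRT8 and by vimentin. The 11 hepatocyte markers summed to 0.269 to 0.560 CPM in HKC-8 and 9.32 to 11.5 CPM in RCC4+VHL, with TTR at 0 in all 12 samples. SERPINA1 led in both lines, at means of 0.234 and 9.77 CPM, and made up nearly all of the RCC4+VHL sum. The 13 endothelial and leukocyte markers summed to 9.33 to 14.2 and 11.7 to 16.3 CPM, on average most of it the lysosomal gene CD68. Of the 13, 5 passed the filter in HKC-8 and 2 in RCC4+VHL. In HKC-8, CDH5 averaged 1.85 and 2.57 CPM and CD14 2.44 and 1.38 CPM (normoxia, then hypoxia). In RCC4+VHL, ITGAM averaged 0.899 and 1.99 CPM. PECAM1, KDR and CD3E were at 0 in both lines.

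Cells sense low oxygen through prolyl hydroxylases that mark the HIF-α proteins for capture by the VHL protein and for destruction. When oxygen falls, HIF-1α and HIF-2α persist, pair with ARNT and bind a short DNA core in the control regions of genes for glucose uptake, glycolysis, blood vessel growth and pH control. Severe hypoxia can also slow protein synthesis through kinases that favour the translation of ATF4, a regulator of amino acid transport and synthesis.

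The lines shared the induction of glycolytic and other classical hypoxia genes but parted over many amino-acid stress and cholesterol genes that rose in HKC-8 alone or rose more there. Single genes such as PLIN2, ADM and EDN1 showed the reverse. The question put to each gene was whether the log2 fold change of hypoxia over normoxia differed between the lines. In what follows a difference is the RCC4+VHL log2 fold change minus the HKC-8 one, with its standard error, and a call is an adjusted p under 0.05.

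Among 14203 genes tested, 1118 responded more positively in RCC4+VHL (7.87% of genes tested) and 1036 more negatively (7.29%), 15.2% in either direction. Among genes with at least a 2-fold difference the balance was uneven, with 350 more negative in RCC4+VHL and 81 more positive, of which 301 and 69 passed the filter in each line apart. The median level of the 301 in RCC4+VHL over HKC-8 was log2 2.42 in normoxia and 0.77 in hypoxia. For the 69 it was -0.44 and 0.89, and for all 12122 genes measured in both lines 0.0088 and -0.0012. These levels come from the same samples as the differences. The lines also differed in depth, and with every library thinned to the smallest total 1151 genes responded more positively and 976 more negatively, of which 1966 were also called with the full counts. Hypoxia on its own induced 1555 genes in HKC-8 (10.9%) and repressed 1148 (8.08%), 19% in either direction. It induced 3249 genes in RCC4+VHL (22.9%) and repressed 3165 (22.3%), 45.2% in either direction. Calls were more numerous in the line with the smaller spread. Changes of at least 2-fold numbered 551 up and 29 down in HKC-8 and 294 up and 145 down in RCC4+VHL, and the HKC-8 numbers were 362 and 19 without normoxia sample 1 and 360 and 18 without hypoxia sample 1. The HKC-8 number down was 54 without hypoxia sample 2, 19 without hypoxia sample 3 and 46 in a fit of all 18 samples. With at least 10 counts required in every sample the numbers were 332 and 13 in HKC-8 and 161 and 34 in RCC4+VHL, and when only genes measured in both lines were fitted 13 were down in HKC-8 and 71 in RCC4+VHL. The 718 genes induced in both lines were 46.2% of those induced in HKC-8 and 22.1% of those induced in RCC4+VHL. Of genes repressed in HKC-8, 51% were also repressed in RCC4+VHL, and that was 18.5% of the RCC4+VHL list. Across the 12122 genes that passed the filter in each line apart, the log2 fold changes had a Pearson r of 0.429 and a Spearman rho of 0.358, as a description over genes that are not independent replicates. For 5498 of the 14203 genes tested the 95% interval of the difference lay within 0.5 log2 units of 0 on either side.

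HKC-8 samples that shared a replicate number resembled each other across oxygen levels, clearly for numbers 2 and 3 and weakly for number 1. Taking the replicate number as a block in HKC-8 alone was an alternative chosen after seeing the data. It raised the counts to 2352 more positive (16.6% of genes tested) and 2067 more negative (14.6%) in RCC4+VHL, with 3025 induced and 2769 repressed in HKC-8. The genes induced in both lines were then 1258, or 41.6% of the HKC-8 list and 38.7% of the RCC4+VHL list, and the 1268 repressed in both were 45.8% and 40.1%. In what follows the values with this block stand beside each count of differing members that it moved by over 1.5 times. With the block in both lines the counts were 2179 and 1892. The more negative count fell to 683 without RCC4+VHL normoxia sample 2, to 667 without hypoxia sample 2 and to 673 without hypoxia sample 3. The HKC-8 induced and repressed counts were 725 and 322 without HKC-8 normoxia sample 1, 942 and 511 without normoxia sample 2, 739 and 366 without hypoxia sample 1, and 1014 and 665 without hypoxia sample 3. Genes induced in both lines numbered 391 and 412 without HKC-8 normoxia or hypoxia sample 1. Genes repressed in both numbered 183 and 253 without HKC-8 normoxia sample 1 or 2, and 199 and 300 without hypoxia sample 1 or 3. A single fit of all 18 samples, which both pools the lines and adds HepG2, gave 2503 and 2510 in HKC-8 and 1867 and 1419 in RCC4+VHL, and the genes induced in both were then 29.8% and 40% of the lists and those repressed in both 24.5% and 43.3%.

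**Figure D1:**
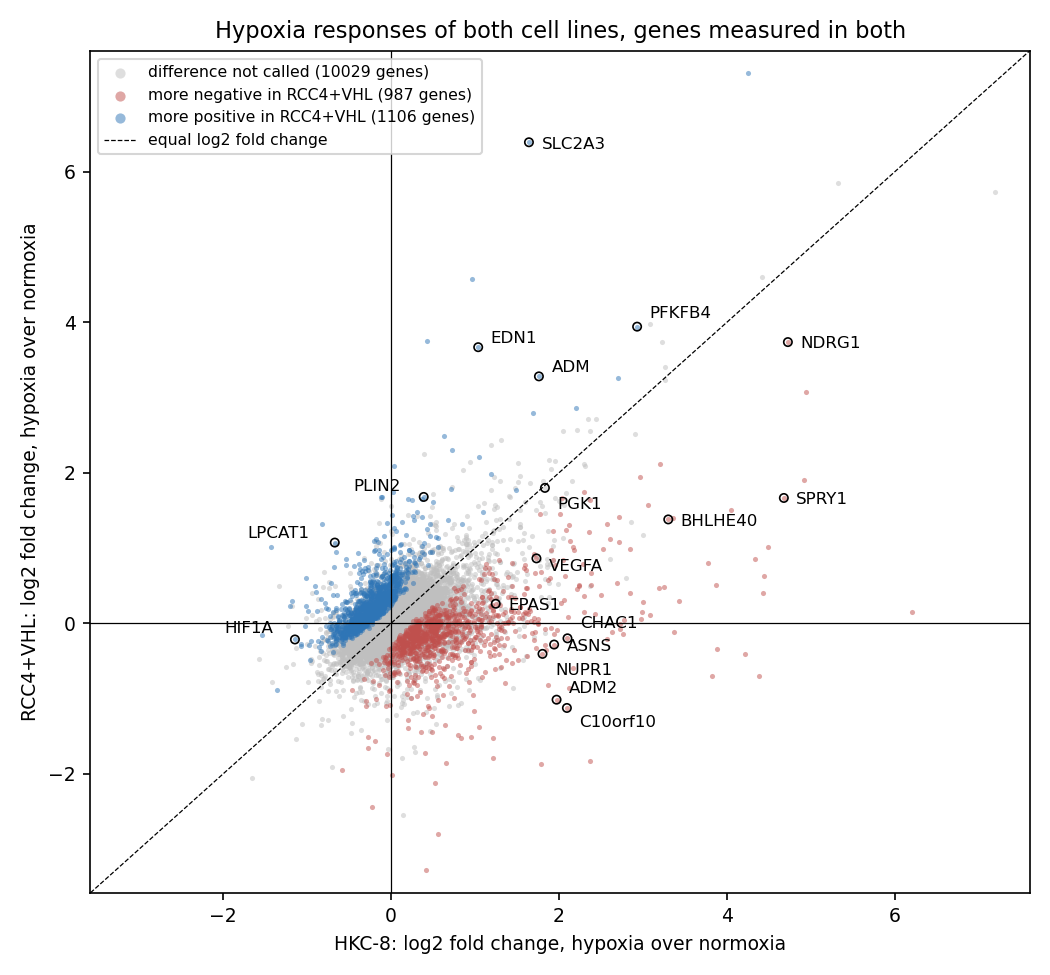
Log2 fold change of hypoxia over normoxia in HKC-8 (x axis) and in RCC4+VHL (y axis) for the 12122 genes measured in both lines, with 987 genes more negative in RCC4+VHL in red, 1106 more positive in blue and the rest in grey. The dashed line marks equal log2 fold changes; PGK1 lies on it, ADM2 and C10orf10 lie far below it, and EDN1 lies above it.

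The genes for the HIF-α subunits themselves responded differently. HIF1A (chr14:62162231-62214977, GRCh37) stood at 384, 366 and 346 CPM in normoxic and 167, 157 and 172 CPM in hypoxic HKC-8. The RCC4+VHL samples gave 373, 372 and 364 CPM and then 317, 318 and 320 CPM. The normoxic samples of the lines overlapped, and every hypoxic HKC-8 sample lay below every hypoxic RCC4+VHL sample. The HIF1A transcript fell by 1.15 on the log2 scale in HKC-8 and fell by 0.22 in RCC4+VHL, a difference of 0.93 ± 0.08 (adjusted p = 6.29e-06). EPAS1 (chr2:46520806-46613836), which encodes HIF-2α, rose from 71.1, 67.3 and 81.2 to 207, 149 and 165 CPM in HKC-8. Its RCC4+VHL levels were already higher, at 253, 257 and 245 CPM in normoxia and 316, 293 and 295 CPM in hypoxia. Neither line's groups overlapped, and the rise was smaller in RCC4+VHL by a difference of -0.99 ± 0.14 (adjusted p = 0.000656).

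Most other members of the oxygen-sensing pathway had no call in the difference. Of the 19 genes tested from that list, 4 responded more negatively in RCC4+VHL and 2 more positively. That was 31.6% in either direction, against 15.2% of genes tested. Hypoxia induced 6 and repressed 2 of them in HKC-8, where 10.9% and 8.08% of genes tested were. It induced 4 and repressed 4 in RCC4+VHL, where 22.9% and 22.3% were. The HKC-8 counts were 10 and 4 with the block and 7 and 4 in the fit of all 18 samples, and without normoxia sample 1 HKC-8 repressed 1. RCC4+VHL repressed 2 in limma and without its normoxia sample 2 or hypoxia sample 3, and in the fit of all 18 samples it induced 2 and repressed 1. SIAH2, a ubiquitin ligase that acts on prolyl hydroxylases, rose in HKC-8 from 39.6, 40.6 and 41.0 to 67.0, 59.1 and 62.1 CPM. Its RCC4+VHL levels were 46.8, 47.0 and 47.8 CPM and then 42.7, 46.6 and 46.0 CPM, each hypoxic sample slightly below each normoxic one without a call in that line, and the difference was -0.70 ± 0.09 (adjusted p = 0.000207). ARNT, the shared partner of the HIF-α subunits, had a difference of 0.20 (95% interval -0.06 to 0.47, adjusted p = 0.306), called at an adjusted p of 0.0472 with the replicate block in both lines and 0.0306 with it in HKC-8 alone. VHL transcripts read 82.5, 81.4 and 93.6 CPM in normoxic and 113, 95.7 and 107 CPM in hypoxic HKC-8. In RCC4+VHL they read 65.1, 65.2 and 67.5 CPM and then 66.5, 68.3 and 62.6 CPM, and the counts do not separate an introduced VHL from the cells' own. The VHL difference of -0.30 ± 0.10 was not called (adjusted p = 0.0711). It was called under 6 alternatives, at an adjusted p of 0.0476 with DESeq2, 0.0475 with thinned libraries, 0.0170 and 0.00753 with the replicate block in both lines or in HKC-8 alone, 0.0207 without HKC-8 normoxia sample 3 and 0.0198 without HKC-8 hypoxia sample 2.

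Classical hypoxia genes rose in both lines. Of 20 core hypoxia-induced genes, HKC-8 induced 20 and RCC4+VHL induced 19. CA9, CA12 and EGLN3 did not pass the filter in RCC4+VHL, and the calls there for CA9 and CA12 rest on levels of at most 0.125 and 0.376 CPM. The responses differed between the lines for 60% of the list against 15.2% of genes tested, with 5 more negative and 7 more positive in RCC4+VHL. Over the 17 core genes measured in both lines the median log2 fold change was 1.83 in HKC-8 and 2.21 in RCC4+VHL. Of the 24 genes for glycolysis and glucose uptake, 22 were induced in either line, where 10.9% of genes tested were in HKC-8 and 22.9% in RCC4+VHL. In RCC4+VHL 3 responded more negatively and 7 more positively (3 and 11 with the block). That was 41.7% in either direction, against 15.2% of genes tested.

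The glycolytic enzyme gene PGK1 is an example of equal responses. Its level was 698, 704 and 697 CPM in normoxic and 2609, 2529 and 2340 CPM in hypoxic HKC-8. In RCC4+VHL the values were 799, 813 and 833 CPM and then 2780, 2931 and 2794 CPM. No hypoxic sample overlapped a normoxic one in either line. PGK1 rose by log2 1.83 and 1.80, and the difference of -0.03 had a 95% interval of -0.20 to 0.13; it was 0.014 without HKC-8 hypoxia sample 1. SLC2A1, the glucose transporter GLUT1, rose from 58.9, 55.8 and 46.9 to 197, 215 and 193 CPM in HKC-8. It rose from 247, 257 and 251 to 1053, 1067 and 1016 CPM in RCC4+VHL. RCC4+VHL thus carried more SLC2A1 transcript under both conditions, yet the difference in response was 0.15 (95% interval -0.08 to 0.37), called without HKC-8 normoxia sample 3 at 0.25 (adjusted p = 0.0409).

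P4HA1, a collagen prolyl hydroxylase subunit, rose by log2 1.77 in HKC-8 and 1.61 in RCC4+VHL, with a difference of -0.16 (95% interval -0.40 to 0.07). It lay between -0.21 and -0.078 over the alternatives, and the replicate block in HKC-8 alone gave P4HA1 an adjusted p of 0.0499. STC2, which encodes the secreted glycoprotein stanniocalcin-2, rose by 2.16 and 1.90. Its difference of -0.26 had an interval of -0.49 to -0.04 and an adjusted p of 0.112, which became 0.0305 and 0.0148 with the block in both lines or in HKC-8 alone and 0.0218 without HKC-8 normoxia sample 2. KIAA1244 rose by 1.81 and 1.90, a difference of 0.09 (95% interval -0.22 to 0.40) that read -0.015 without HKC-8 normoxia sample 2. These genes, with PGK1 and SLC2A1, had the largest shared induction among genes whose interval lay within 0.5 log2 units of 0.

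Several core genes rose further in HKC-8. BHLHE40 (chr3:5021122-5027008), a transcriptional repressor also known as DEC1, stood at 18.6, 16.1 and 21.2 CPM in normoxic and 218, 145 and 189 CPM in hypoxic HKC-8. RCC4+VHL began higher, at 74.1, 82.0 and 73.5 CPM, and reached 205, 200 and 193 CPM. The hypoxic samples of the lines overlapped and the normoxic samples did not. The BHLHE40 rise was log2 3.30 in HKC-8 and 1.38 in RCC4+VHL (difference -1.92 ± 0.18, adjusted p = 2.1e-05). VEGFA, the main growth factor for blood vessels, was close in normoxia, at 36.0, 37.2 and 39.3 CPM in HKC-8 and 29.8, 28.3 and 30.0 CPM in RCC4+VHL. Hypoxia took it to 135, 107 and 131 CPM in HKC-8 and to 54.3, 54.1 and 51.8 CPM in RCC4+VHL. HKC-8 lay above RCC4+VHL in all normoxic and all hypoxic samples, and the difference was -0.87 ± 0.11 (adjusted p = 0.000316). PFKFB3, an activator of glycolytic flux, rose by 1.79 and 0.68 (difference -1.10 ± 0.15, adjusted p = 0.000497). NDRG1, a stress-responsive gene, rose by 4.73 and 3.74 (difference -0.99 ± 0.24, adjusted p = 0.0146).

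Other core genes rose further in RCC4+VHL. ADM (chr11:10326620-10328944), which encodes the vasodilator adrenomedullin, went from 20.2, 22.7 and 12.03 to 60.1, 66.9 and 59.3 CPM in HKC-8. RCC4+VHL took it from 8.04, 8.26 and 8.44 to 79.0, 83.8 and 77.6 CPM. RCC4+VHL lay below HKC-8 in every normoxic sample and above it in every hypoxic one. The ADM rise was log2 1.76 against 3.28 (difference 1.52 ± 0.23, adjusted p = 0.000923). PFKFB4, a relative of PFKFB3, rose by 2.93 in HKC-8 and 3.94 in RCC4+VHL (difference 1.01 ± 0.14, adjusted p = 0.000593), the opposite order to PFKFB3. The aldolase gene ALDOC rose by 1.04 and 2.21 (difference 1.17 ± 0.19, adjusted p = 0.00118). LOX, a collagen cross-linking oxidase, rose by 2.20 and 2.86 (difference 0.65 ± 0.09, adjusted p = 0.000368), and the mitophagy receptor gene BNIP3 by 2.70 and 3.25 (difference 0.56 ± 0.10, adjusted p = 0.0034). ANKRD37 rose by 1.68 and 2.80 (difference 1.12 ± 0.26, adjusted p = 0.0105). No normoxic sample of these genes overlapped a hypoxic sample of the same line.

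Smaller differences were less firm. LDHA, lactate dehydrogenase A, had a difference of 0.28 (adjusted p = 0.0334) that was no longer called without any 1 of the 12 samples except HKC-8 normoxia sample 3 and hypoxia sample 2, with adjusted p between 0.0558 without RCC4+VHL normoxia sample 3 and 0.0973 without RCC4+VHL normoxia sample 2, nor from each line's own fit (0.0573). KDM3A, a histone demethylase, had a difference of -0.33 (adjusted p = 0.0357) that was lost without any 1 of the 12 samples except HKC-8 normoxia sample 3, HKC-8 hypoxia sample 2 and RCC4+VHL hypoxia sample 1, with adjusted p between 0.0532 without HKC-8 hypoxia sample 3 and 0.0969 without RCC4+VHL hypoxia sample 3, and at 0.0573 with no low-count filter. PDK1, a kinase that closes the entry of pyruvate into mitochondria, had a difference of 0.35 (adjusted p = 0.14). PDK1 was called with the replicate block in both lines (0.0290) or in HKC-8 alone (0.0143) and without HKC-8 hypoxia sample 3 (0.47, adjusted p = 0.0295). DDIT4, an inhibitor of mTORC1, rose by 2.44 and 2.72 with a difference of 0.28 (adjusted p = 0.455) that lay between 0.035 and 0.42 over the alternatives.

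EDN1 (chr6:12290594-12297427) was the gene with the most positive difference among those with a mean of at least 1 CPM in all 4 groups. It encodes endothelin-1, a vasoconstrictor peptide. Its HKC-8 levels were 0.971, 1.81 and 0.582 CPM in normoxia and 1.87, 2.59 and 2.41 CPM in hypoxia. In RCC4+VHL they were 1.58, 2.21 and 1.52 CPM and then 22.3, 23.6 and 21.9 CPM. The 3 hypoxic RCC4+VHL samples stood apart from the other 9, among which no value passed 2.59 CPM. EDN1 had a log2 fold change of 1.04 in HKC-8, not called in the fit without a block (adjusted p = 0.0746). Each hypoxic HKC-8 sample nevertheless lay above the normoxic sample of the same number. EDN1 rose by 3.67 in RCC4+VHL (adjusted p = 2.43e-21), a difference of 2.63 ± 0.40 (adjusted p = 0.000972).

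**Figure D2:**
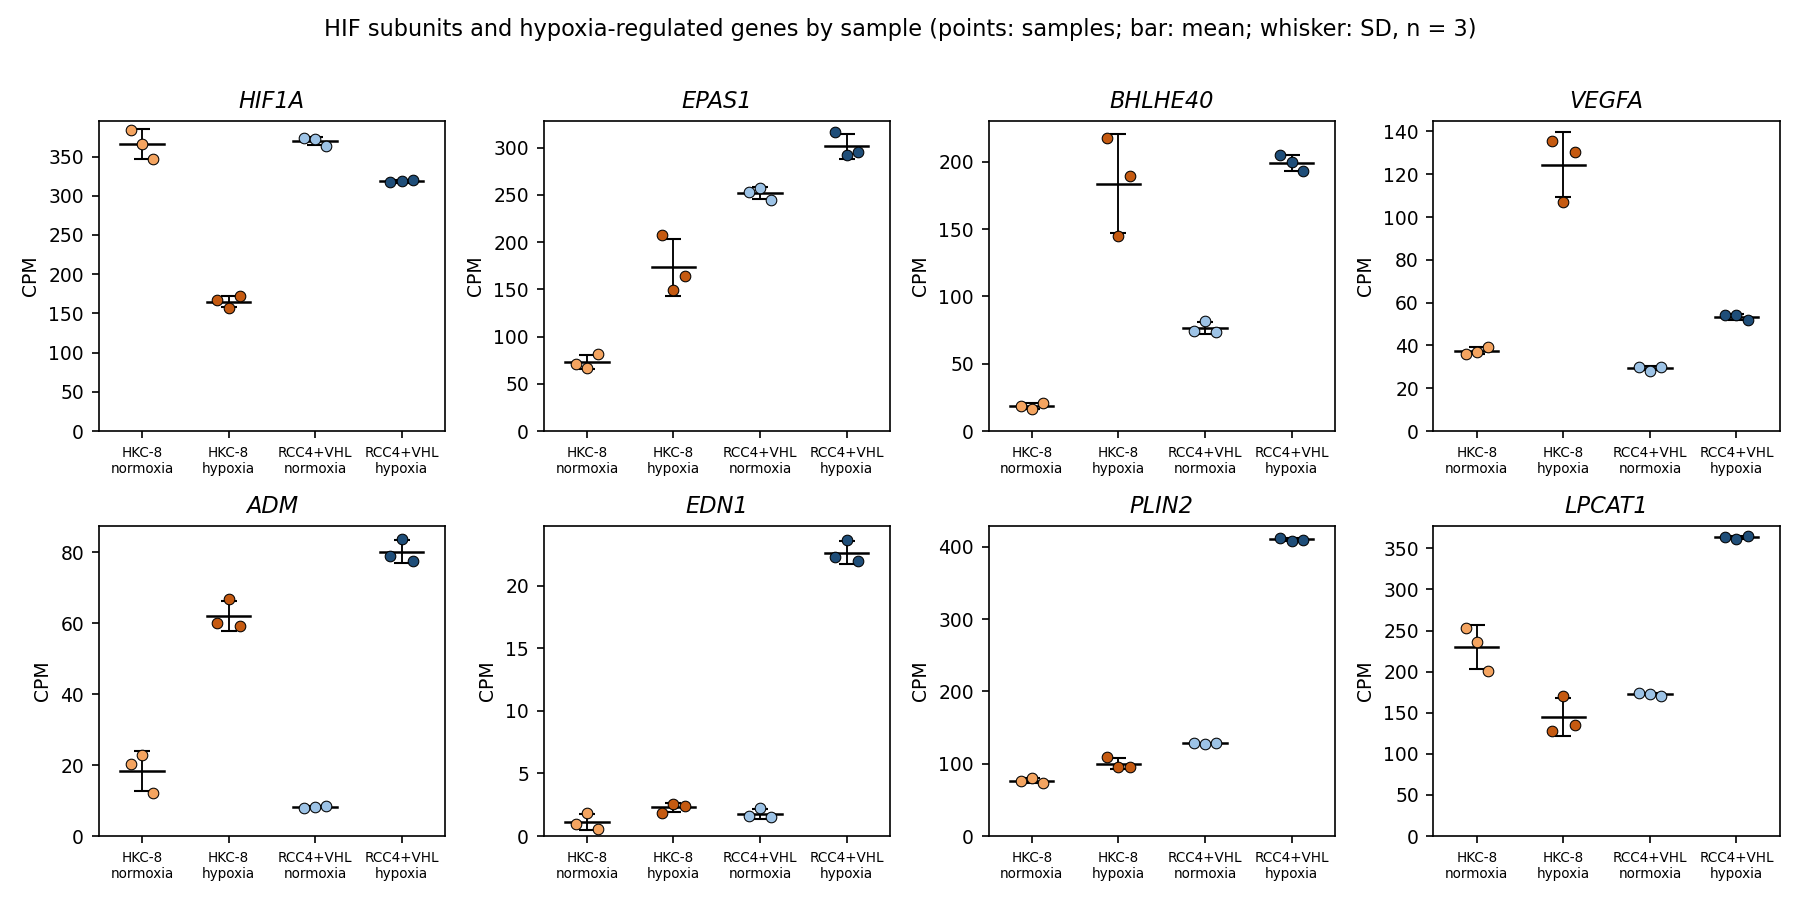
CPM (y axis, from 0) of 8 genes in the 12 samples, by cell line and oxygen; points are samples, bars are means and whiskers are SD with 3 samples a group. BHLHE40 ends at overlapping hypoxic levels from different normoxic ones, whereas EDN1 and PLIN2 separate the hypoxic RCC4+VHL samples from all others.

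Windows from 250 bases before to 50 bases after the annotated start were searched for the HIF core, ACGTG or GCGTG, on both strands, because the core genes responded together in direction. The RefSeq promoter table (GRCh38.p14) held a window for 10178 of the 14203 genes tested, the first listed being used for a gene with several. The core was present in 62.4% of those 10178 windows and in 48.4% of all 27305 windows of the table. It was present in 16 of the 18 core hypoxia-induced genes with a window (88.9%), in 116 of 199 genes with a difference of at most -1 (58.3%) and in 33 of 49 with a difference of at least 1 (67.3%). A match describes letters in a window and says nothing of a factor. Each window stands at the first listed RefSeq start, which was not compared with the GRCh37 gene positions given above. A window, such as that of EDN1, may therefore belong to a start other than the one at that position. Part of 3 windows is shown, all on the + strand, with matches on either strand in capitals, for EDN1 (chr6:12287912-12288018) and ADM (chr11:10304927-10305026), which rose further in RCC4+VHL, and for PGK1 (chrX:78103998-78104114), which rose alike.
EDN1: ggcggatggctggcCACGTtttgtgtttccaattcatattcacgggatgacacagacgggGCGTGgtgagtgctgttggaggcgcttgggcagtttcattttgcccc
ADM: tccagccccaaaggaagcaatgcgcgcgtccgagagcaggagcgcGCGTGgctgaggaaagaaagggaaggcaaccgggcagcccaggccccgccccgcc
PGK1: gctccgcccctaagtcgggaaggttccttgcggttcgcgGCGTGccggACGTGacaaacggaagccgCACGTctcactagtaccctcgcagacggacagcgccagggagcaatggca

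Amino-acid stress genes were the list with the largest share of different responses. ATF4 targets serve amino acid import, asparagine and serine synthesis, glutathione turnover and cell death. All 21 genes of the list were induced in HKC-8, where 10.9% of genes tested were. In RCC4+VHL 6 were induced and 7 repressed, with 5 repressed in limma and 2 in the fit of all 18 samples. Of genes tested, 22.9% were induced and 22.3% repressed in that line. The response was more negative in RCC4+VHL for 16 of the 21 and more positive for 0, where 7.29% of all genes were called more negative. In edgeR 18 were more negative and 0 more positive at an unadjusted p under 0.05, and DESeq2 called 17 and 0. Over the 20 members measured in both lines the median log2 fold change was 1.29 in HKC-8 and -0.04 in RCC4+VHL, and the median difference was -1.09, against 0.01 for all genes measured in both. The count of 16 reached 18 without HKC-8 normoxia sample 2 and did not fall below 16 when any 1 of the 12 samples was left out.

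ADM2 (chr22:50919972-50924869), which encodes the adrenomedullin relative intermedin and is outside the list, had the most negative difference of the genes with a mean of at least 1 CPM in all groups. Its level rose in HKC-8 from 5.97, 6.19 and 11.4 to 32.5, 26.5 and 33.4 CPM. RCC4+VHL samples fell from 22.8, 22.4 and 24.6 to 11.9, 11.6 and 10.98 CPM. Neither pair of groups overlapped, and the lines exchanged their order between normoxia and hypoxia. The difference was -2.99 ± 0.27 (adjusted p = 1.94e-05). Its paralogue ADM, described above, had a difference of 1.52 in the other direction.

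CHAC1 (chr15:41245160-41248710), a glutathione-degrading enzyme gene, rose in HKC-8 from 4.84, 8.29 and 9.96 to 36.7, 31.6 and 30.8 CPM. Its RCC4+VHL levels were 6.02, 4.85 and 5.24 CPM in normoxia and 4.94, 4.57 and 4.53 CPM in hypoxia, which overlap. The difference was -2.30 ± 0.28 (adjusted p = 0.000181). ASNS (chr7:97480989-97501854), asparagine synthetase, read 82.8, 99.1 and 241 CPM in normoxic and 459, 443 and 723 CPM in hypoxic HKC-8. The samples numbered 3 were the highest under both conditions, and no normoxic sample reached a hypoxic one. In RCC4+VHL ASNS read 112, 111 and 116 CPM and then 89.3, 103 and 85.7 CPM, a small fall of log2 -0.28 (adjusted p = 2.39e-05) without overlap. The ASNS difference was -2.23 ± 0.43 (adjusted p = 0.00415).

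NUPR1, a stress-induced chromatin protein gene, read 2.77, 2.25 and 9.58 CPM in normoxic and 14.5, 12.6 and 24.0 CPM in hypoxic HKC-8. It fell in RCC4+VHL from 38.9, 39.0 and 36.8 to 30.4, 29.0 and 27.2 CPM. Here too HKC-8 samples numbered 3 were the highest of their groups, and neither pair of groups overlapped (difference -2.20 ± 0.54, adjusted p = 0.0152). VLDLR (chr9:2621182-2660056), a lipoprotein receptor that both ATF4 and HIF regulate, rose in HKC-8 from 16.8, 14.2 and 19.4 to 84.99, 73.5 and 75.6 CPM. Its rise in RCC4+VHL was from 110, 105 and 104 to 148, 144 and 145 CPM. Both rises were without overlap, and the difference was -1.76 ± 0.13 (adjusted p = 4.21e-06). SESN2, a leucine-sensing inhibitor of mTORC1, rose in HKC-8 from 18.2, 19.8 and 24.4 to 51.9, 42.9 and 50.9 CPM, while RCC4+VHL fell from 26.7, 27.6 and 27.5 to 23.5, 21.2 and 24.2 CPM (difference -1.47 ± 0.15, adjusted p = 4.76e-05).

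CEBPB, a partner of ATF4 on DNA, rose by 0.54 in HKC-8 and fell by 0.76 in RCC4+VHL (difference -1.30 ± 0.14, adjusted p = 5.51e-05). ATF3, a stress-induced repressor, had values of 1.36 and 0.15, the latter not called (difference -1.20 ± 0.19, adjusted p = 0.00116). SLC1A4, a transporter of serine and alanine that was outside the list and named for its large difference, rose by 1.83 and fell by 0.29 (difference -2.12 ± 0.23, adjusted p = 7.58e-05). A pair of list members named after their values were seen shows the range. ATF4 itself read 376, 397 and 385 CPM in normoxic and 565, 521 and 587 CPM in hypoxic HKC-8, and 357 to 382 CPM in all 6 RCC4+VHL samples (difference -0.57 ± 0.08, adjusted p = 0.000435). TRIB3, a pseudokinase gene downstream of ATF4, rose in both lines, by 2.01 and 1.45 (difference -0.56 ± 0.12, adjusted p = 0.00652). DDIT4 and STC2, which belong both to this list and to the hypoxia genes given above, were not among the 16.

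PHGDH, which opens serine synthesis, was measured in HKC-8 only and was also chosen after its values were seen. It rose there from 158, 171 and 264 to 376, 391 and 476 CPM. In RCC4+VHL it had no count in normoxia and 0.0208, 0 and 0.0209 CPM in hypoxia, all under the floor, so no response could be detected at this depth.

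**Figure D3:**
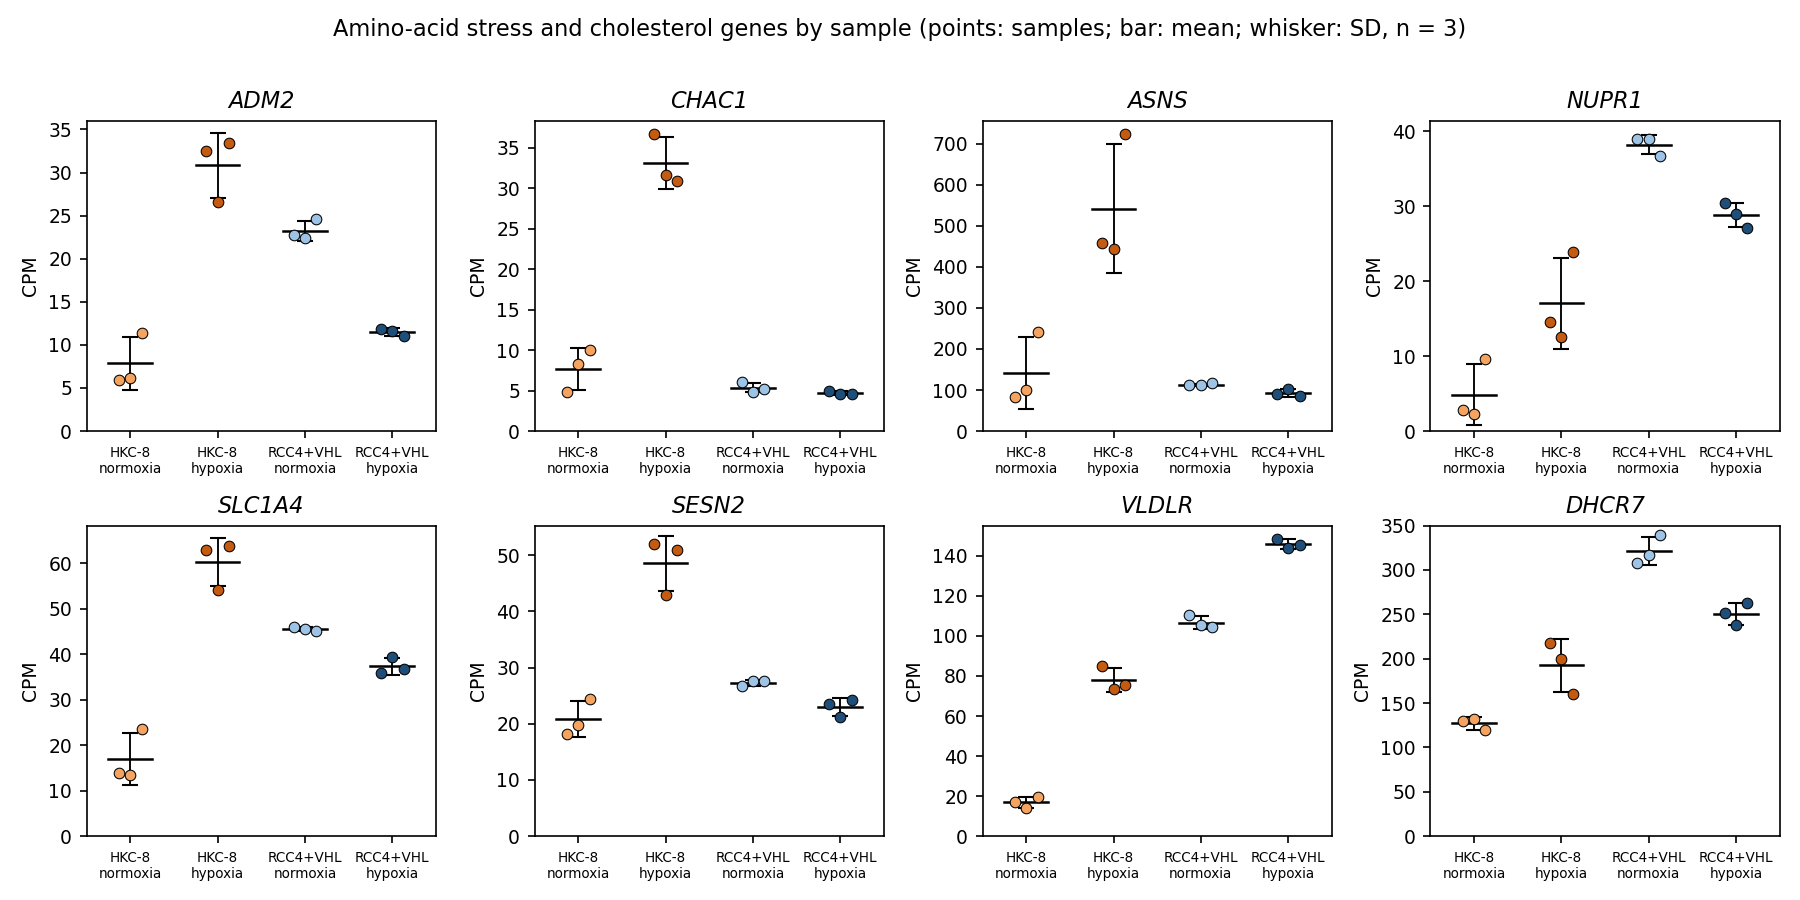
CPM (y axis, from 0) of 8 genes in the 12 samples, from the amino-acid stress and cholesterol lists except ADM2 and SLC1A4, by cell line and oxygen; points are samples, bars are means and whiskers are SD with 3 samples a group. ADM2, CHAC1 and ASNS rise in hypoxic HKC-8 and are level or lower in hypoxic RCC4+VHL.

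The composite element that ATF4 shares with C/EBP factors, TGATGNAA, was searched on both strands of the same windows, again because list members moved together. Of the 21 genes 17 had a window, and 4 of these (23.5%) held the element, in ATF3, CHAC1, ASNS and SLC3A2. It was present in 1.8% of the 10178 windows of genes tested and in 3.67% of all 27305 windows. Genes with a difference of at most -1 held it in 7 of 199 windows (3.52%), and those with a difference of at least 1 in 1 of 49 (2.04%). The HIF core was present in 12 of the 17 (70.6%). Stretches of 100 bases are shown with the element in capitals for the 3 genes of these whose response differed: ASNS on the - strand (chr7:97872422-97872521), and CHAC1 (chr15:40953221-40953320) and ATF3 (chr1:212565171-212565270) on the + strand, all in GRCh38.p14 and from RefSeq. The element begins 68, 209 and 191 bases before the start, and in CHAC1 it reads on the opposite strand.
ASNS: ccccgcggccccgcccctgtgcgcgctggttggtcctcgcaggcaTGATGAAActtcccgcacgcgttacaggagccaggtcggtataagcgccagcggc
CHAC1: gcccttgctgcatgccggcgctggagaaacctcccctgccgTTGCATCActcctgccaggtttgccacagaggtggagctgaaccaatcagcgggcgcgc
ATF3: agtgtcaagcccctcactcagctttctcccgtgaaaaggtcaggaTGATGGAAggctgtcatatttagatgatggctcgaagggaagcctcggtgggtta

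Cholesterol synthesis genes formed another group that rose mainly in HKC-8. Of 24 tested, 15 were induced in HKC-8, where 10.9% of genes tested were. RCC4+VHL induced 3 and repressed 9, where 22.9% and 22.3% of genes tested were. The RCC4+VHL calls depended on the fit, with 2 induced and 6 repressed in limma and 0 and 3 in edgeR with all 18 samples (1 and 4 at an unadjusted p under 0.05). The response was more negative in RCC4+VHL for 16 and more positive for 0, 66.7% in either direction against 15.2% of genes tested. In edgeR 18 and 0 were so at an unadjusted p under 0.05, and DESeq2 called 17 and 0. Over the 23 members measured in both lines the median log2 fold change was 0.50 in HKC-8 and -0.05 in RCC4+VHL, with a median difference of -0.60. The count of 16 fell to 10 without RCC4+VHL normoxia sample 3. It was 18 with the replicate block in both lines and 19 with the block in HKC-8 alone, and HKC-8 then induced 20 and repressed 1.

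DHCR7, which makes the last step to cholesterol, read 130, 132 and 119 CPM in normoxic and 218, 199 and 160 CPM in hypoxic HKC-8. Levels in RCC4+VHL were 308, 317 and 339 CPM and then 251, 238 and 262 CPM. Groups did not overlap in either line, and the changes ran in opposite directions (difference -0.96 ± 0.13, adjusted p = 0.000428). LSS, lanosterol synthase, rose in HKC-8 from 103, 109 and 107 to 185, 178 and 142 CPM. RCC4+VHL values overlapped, at 59.9, 64.4 and 67.7 CPM and then 65.1, 59.2 and 66.4 CPM (difference -0.67 ± 0.13, adjusted p = 0.00334). For both genes hypoxic HKC-8 sample 3 was the lowest of its group. MVD, mevalonate decarboxylase, had log2 fold changes of 0.84 and -0.15 (difference -0.99 ± 0.19, adjusted p = 0.00343). The sterol element TCACNCCAC, searched in the same way, was present in 1 of the 17 cholesterol windows, that of SREBF2 (5.88%), against 1.07% of the windows of genes tested. The HIF core was present in 14 of the 17 (82.4%), against 62.4% of the windows of genes tested. The sterol element was present in 2 of the 18 windows of core hypoxia-induced genes (11.1%).

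Some growth factor feedback genes, a list of receptor pathway inhibitors, binding proteins and adaptors, responded differently. Of 16 tested, 6 responded more negatively in RCC4+VHL and 0 more positively (8 and 1 at an unadjusted p under 0.05 in edgeR), and DESeq2 called 6 and 0. The edgeR share was 37.5% in either direction, against 15.2% of genes tested. Each line induced 7, where 10.9% of genes tested were induced in HKC-8 and 22.9% in RCC4+VHL. With the block HKC-8 induced 13, and 9 differed negatively and 1 positively. SPRY1 (chr4:124317950-124324915), an inhibitor of receptor tyrosine kinase signalling, read 0.324, 0.233 and 0.291 CPM in normoxic and 7.35, 7.39 and 7.12 CPM in hypoxic HKC-8. RCC4+VHL read 1.89, 1.44 and 1.73 CPM and then 5.90, 5.06 and 5.14 CPM. RCC4+VHL lay above HKC-8 in normoxia and below it in hypoxia, without overlap (log2 4.68 against 1.67, difference -3.01 ± 0.23, adjusted p = 4.88e-06). ERRFI1, a feedback inhibitor of the EGF receptor, rose in HKC-8 from 37.7, 38.3 and 36.96 to 118, 83.7 and 123 CPM. It stayed between 54.1 and 60.8 CPM in RCC4+VHL (difference -1.45 ± 0.15, adjusted p = 6.83e-05). IRS2, an adaptor of the insulin receptor, rose by 1.95 and 0.77 (difference -1.18 ± 0.15, adjusted p = 0.000307). FGF11, a fibroblast growth factor homologue that acts inside the cell and is outside this list, rose by 3.36 and 1.40 (difference -1.96 ± 0.27, adjusted p = 0.0005).

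More immediate early, Notch and matrix genes were called more negative than more positive in RCC4+VHL, where 7.29% and 7.87% of genes tested were. Of 20 AP-1 and immediate early genes, 7 were more negative and 1 more positive in RCC4+VHL (8 and 4 with the block). The share was 40% in either direction, and 33.3% for the Notch list below, against 15.2% of genes tested. HKC-8 induced 10 of the 20 and RCC4+VHL 9, where 10.9% and 22.9% of genes tested were induced. KLF10, a TGF-β inducible factor, had log2 fold changes of 0.86 and 0.08 (difference -0.78 ± 0.10, adjusted p = 0.000182), and JUND had 0.54 and -0.28 (difference -0.83 ± 0.12, adjusted p = 0.000703). Of 12 Notch genes, 4 were more negative and 0 more positive (5 and 0 at an unadjusted p under 0.05 in edgeR, 4 and 0 in DESeq2, 5 and 1 with the block). NRARP, a Notch target that limits Notch signalling, read 3.72, 3.56 and 4.44 CPM and then 6.33, 6.05 and 5.87 CPM in HKC-8. RCC4+VHL levels fell from 17.7, 20.7 and 17.6 to 7.42, 6.90 and 7.54 CPM. The groups separated in both lines in opposite directions (difference -1.99 ± 0.16, adjusted p = 5.98e-06). HES1, another Notch target, had values of 0.57 and -0.25 (difference -0.82 ± 0.11, adjusted p = 0.00051).

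Among 23 collagen and matrix genes 5 were more negative in RCC4+VHL and 1, LOX, more positive (8 and 1 with the block). That was 26.1% in either direction, against 15.2% of genes tested. Each line induced 11, where 10.9% of genes tested were induced in HKC-8 and 22.9% in RCC4+VHL. The RCC4+VHL count was 8 in limma and 6 in the fit of all 18 samples. P4HA2, like P4HA1 a collagen prolyl hydroxylase subunit, rose by 1.61 and 0.71 (difference -0.90 ± 0.10, adjusted p = 6.83e-05). COL5A1, a fibrillar collagen chain, rose from 39.1, 33.9 and 49.3 to 94.3, 86.1 and 99.98 CPM in HKC-8 and lay between 12.7 and 16.6 CPM in all RCC4+VHL samples (difference -1.17 ± 0.19, adjusted p = 0.0013). ITGA5, the fibronectin receptor subunit, rose in HKC-8 from 127, 144 and 139 to 276, 273 and 281 CPM. It ranged from 53.6 to 59.96 CPM in RCC4+VHL, where normoxia and hypoxia overlapped (difference -1.09 ± 0.08, adjusted p = 4.88e-06). ITGA5 belongs to the epithelial-mesenchymal list, in which 3 of 19 genes were more negative and 1 more positive (7 and 4 with the block). That share of 21.1% in either direction is not far from the 15.2% of genes tested. PRKCE, protein kinase C epsilon, rose by 1.84 in HKC-8 and fell by 0.36 in RCC4+VHL (difference -2.20 ± 0.12, adjusted p = 5.73e-07). CRISPLD2, a secreted glycoprotein gene, rose by 1.35 and fell by 0.80 (difference -2.15 ± 0.12, adjusted p = 5.73e-07). The non-coding LINC00263 had values of 1.72 and -0.33, the latter not called (difference -2.05 ± 0.33, adjusted p = 0.00128).

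Fatty acid and lipid droplet genes differed in both directions. Of 21 tested, 5 were more negative and 5 more positive in RCC4+VHL (8 and 5 at an unadjusted p under 0.05 in edgeR, 8 and 6 with the block). That was 47.6% in either direction, where 7.29% of genes tested were more negative and 7.87% more positive. VLDLR, described above, was among the negative ones. PLIN2 (chr9:19108373-19149288), which coats lipid droplets and is abundant in clear cell renal carcinoma, rose slightly in HKC-8, from 75.8, 80.3 and 73.8 to 109, 95.4 and 96.0 CPM. Levels in RCC4+VHL rose from 128, 127 and 129 to 413, 409 and 410 CPM. Both rises were without overlap (log2 0.39 against 1.68, difference 1.29 ± 0.08, adjusted p = 1.98e-06). ELOVL6, a fatty acid elongase, fell in HKC-8 from 34.9, 33.3 and 39.3 to 20.1, 19.3 and 18.5 CPM. It rose in RCC4+VHL from 11.1, 10.5 and 10.6 to 13.8, 14.3 and 14.7 CPM (difference 1.30 ± 0.11, adjusted p = 1.13e-05).

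Other genes with a large positive difference were of mixed function. LPCAT1 (chr5:1456595-1524077), an enzyme of phosphatidylcholine remodelling, fell in HKC-8 from 253, 236 and 201 to 128, 171 and 135 CPM. It rose in RCC4+VHL from 174, 173 and 171 to 364, 361 and 365 CPM. Groups separated in both lines, in opposite directions (difference 1.74 ± 0.14, adjusted p = 5.77e-06). COL4A3BP, the ceramide transfer protein CERT, fell by 0.54 in HKC-8 and rose by 0.77 in RCC4+VHL (difference 1.31 ± 0.09, adjusted p = 1.98e-06). KIAA0513 had log2 fold changes of -0.12, not called, and 1.68 (difference 1.81 ± 0.26, adjusted p = 0.000553). APOL1, the trypanolytic apolipoprotein, read 12.6, 11.7 and 17.7 CPM and then 16.2, 15.6 and 16.4 CPM in HKC-8, which overlap. It rose in RCC4+VHL from 67.5, 65.1 and 59.9 to 221, 188 and 197 CPM (difference 1.45 ± 0.17, adjusted p = 0.000133). SEMA3C, a secreted semaphorin, had values of -1.01 and 0.60 (difference 1.61 ± 0.28, adjusted p = 0.00218). TMEM106A had -1.18 and 0.29, the latter not called (difference 1.48 ± 0.31, adjusted p = 0.00699), and AOX1, aldehyde oxidase, had -0.68 and 0.75 (difference 1.43 ± 0.19, adjusted p = 0.000382). RAB42, a small GTPase gene, had 0.24, not called, and 1.64 (difference 1.40 ± 0.32, adjusted p = 0.00956). NAV3 had a difference of 1.40 (adjusted p = 0.0468) that was not called without any 1 of the 12 samples except HKC-8 normoxia sample 3 and hypoxia sample 2, at an adjusted p between 0.0730 without HKC-8 normoxia sample 1 and 0.109 without HKC-8 hypoxia sample 1.

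SLC2A3, the glucose transporter GLUT3, had a fitted difference of 4.86 ± 1.09 (adjusted p = 0.00928) and was chosen after its values were seen. In HKC-8 it rose from 18.98, 15.4 and 21.6 to 72.2, 43.4 and 59.1 CPM. In RCC4+VHL it read 0, 0.0201 and 0 CPM in normoxia and 1.17, 0.650 and 0.606 CPM in hypoxia. Every normoxic RCC4+VHL value was under the floor, so the fitted size is no bound, and the RCC4+VHL level stayed below every HKC-8 level.

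Some mitosis genes differed by small amounts. Of 23, 8 were more positive in RCC4+VHL and 0 more negative, 34.8% against 15.2% of genes tested in either direction (12 and 1 at an unadjusted p under 0.05 in edgeR, 10 and 0 in DESeq2, 14 and 1 with the block). HKC-8 repressed 7, where 8.08% of genes tested were, and 3 without its normoxia sample 1 or hypoxia sample 1. RCC4+VHL induced 10 and repressed 6, where 22.9% and 22.3% of genes tested were. The RCC4+VHL counts were 5 and 1 in the fit of all 18 samples. The median log2 fold change was -0.19 in HKC-8 and 0.03 in RCC4+VHL, with a median difference of 0.30. TTK, a spindle checkpoint kinase, fell by 0.37 in HKC-8 and rose by 0.29 in RCC4+VHL (difference 0.66 ± 0.11, adjusted p = 0.0013). KIF23, a kinesin of cell division, fell by 0.34 and rose by 0.20 (difference 0.54 ± 0.10, adjusted p = 0.00311). Of 22 ribosome biogenesis genes, 4 were more positive and 0 more negative in RCC4+VHL, a share of 18.2% that is near that of genes tested (8 and 0 at an unadjusted p under 0.05 in edgeR, 5 and 0 in DESeq2). With the block 15 were more positive and 0 more negative (16 and 0 unadjusted), and without HKC-8 normoxia sample 3 or hypoxia sample 2 the positive count was 13 or 8. HKC-8 repressed 10 of them, a count that was 0 without normoxia sample 1 or hypoxia sample 1, 1 without normoxia sample 2, 2 without hypoxia sample 3, 18 without normoxia sample 3 and 20 with the block. RCC4+VHL induced 4 and repressed 9, and 1 and 1 in the fit of all 18 samples. UTP20, part of the processome of the small ribosomal subunit, fell by 0.55 and rose by 0.20 (difference 0.75 ± 0.16, adjusted p = 0.00695). WDR43, from the same machinery, had values of -0.42, at the edge of a call, and 0.45 (difference 0.87 ± 0.15, adjusted p = 0.0019). Hypoxic and normoxic samples of TTK, KIF23 and UTP20 did not overlap in either line. DNA replication genes had 2 more negative and 1 more positive among 31, a share of 9.68% that is below that of genes tested (3 and 7 at an unadjusted p under 0.05 in edgeR, 2 and 4 in DESeq2, 3 and 7 with the block).

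Some genes were called in opposite directions in the 2 lines and also in the difference. There were 241, or 1.7% of genes tested, of which 130 were induced in HKC-8 and repressed in RCC4+VHL and 111 the reverse. All but 6 were measured in both lines, 235 in number, and 219 had a mean of at least 1 CPM in every group. The count was 79 without HKC-8 normoxia sample 1 (57 and 22), 119 without normoxia sample 2 (72 and 47) and 82 without hypoxia sample 1 (55 and 27). With the replicate block in HKC-8 alone it was 609 (307 and 302), and with the block in both lines 626 (317 and 309).

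In the first direction the rule named IL21R, MYO7A, ARHGAP40, C10orf10 and LONRF2, each with at least 1 group averaging under 1 CPM. IL21R was measured in HKC-8 only. The differences of MYO7A, ARHGAP40 and LONRF2 were -4.20 ± 0.97, -2.73 ± 0.43 and -2.42 ± 0.57 (adjusted p = 0.0111, 0.00116 and 0.0116). C10orf10, a fasting-induced gene also known as DEPP1, read 0.995, 0.713 and 1.25 CPM and then 4.47, 3.17 and 5.05 CPM in HKC-8. In RCC4+VHL it read 1.48, 1.89 and 1.99 CPM and then 0.542, 0.487 and 1.42 CPM. Groups separated in both lines (log2 2.09 against -1.13, difference -3.22 ± 0.49, adjusted p = 0.000904). In the other direction the genes were CLMP, AOX1, LPCAT1, SEMA3C and COL4A3BP. CLMP, an adhesion molecule gene, was measured in HKC-8 only and reached at most 0.334 CPM in RCC4+VHL.

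The cell cycle inhibitor CDKN1A likewise rose by 0.79 in HKC-8 and fell by 0.43 in RCC4+VHL. Its levels were far apart, at 16.9, 12.8 and 14.9 CPM and then 34.7, 22.6 and 19.8 CPM in HKC-8. In RCC4+VHL they were 174, 176 and 175 CPM and then 130, 127 and 133 CPM (difference -1.21 ± 0.22, adjusted p = 0.00271). No group overlapped another. CDKN1A was 1 of 4 among 19 p53 targets with a more negative difference, and 2 were more positive. The share of that list was 31.6% in either direction, against 15.2% of genes tested.

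Genes that passed the filter in a single line had few or no counts in the other, and a fitted difference for them depends on those counts; they are part of the counts over 14203 genes. There were 1301 such genes in HKC-8, of which hypoxia induced 179 and repressed 46, and 689 in RCC4+VHL, of which it induced 127 and repressed 141. CA9, carbonic anhydrase IX and a standard hypoxia marker, went from 6.74, 4.55 and 4.80 to 158, 186 and 145 CPM in HKC-8. In RCC4+VHL it had no count in normoxia and read 0.125, 0.0812 and 0.0626 CPM in hypoxia, near the floor. STC1, stanniocalcin-1, went from 0.384, 0.356 and 0.985 to 40.8, 32.1 and 42.1 CPM in HKC-8 and did not pass 0.167 CPM in RCC4+VHL. PRSS8, a serine protease of epithelia, went from 2.65, 2.17 and 4.91 to 29.0, 30.3 and 34.8 CPM in HKC-8. PHACTR1 and DBH, which reached 1.52 CPM at most, completed the 5 genes of largest change among those that averaged at least 1 CPM in the higher condition.

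On the RCC4+VHL side CP, the ferroxidase ceruloplasmin, rose from 25.5, 23.4 and 27.3 to 196, 189 and 195 CPM and did not pass 0.127 CPM in HKC-8. The locus LOC100506134 rose from 0.160, 0.1003 and 0.0237 to 9.02, 7.90 and 8.87 CPM. IL1B, the inflammatory cytokine interleukin-1β, fell from 1.16, 0.923 and 1.33 to 0.0208, 0.0406 and 0.0626 CPM. NRN1 and KCNJ13 were the other genes of largest change under the same limit, with NRN1 higher and KCNJ13 lower in all 3 hypoxic samples.

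HepG2, kept at 0.5% oxygen for 16 h by its labels, offered a list of hypoxia genes drawn from samples that neither kidney line shares. Hypoxia induced 19.9% of the genes tested in HepG2 and repressed 19.2%, and 563 genes rose at least 2-fold. Of these 421 were tested here and 334 were measured in both kidney lines. HKC-8 induced 198 of the 334, and RCC4+VHL induced 210 and repressed 27. The median log2 fold change was 0.74 in HKC-8 and 0.52 in RCC4+VHL. The difference was more negative in RCC4+VHL for 69 (20.7%, where 8.14% of genes measured in both lines were) and more positive for 31 (9.28%, against 9.12%). The median difference of -0.22 was -0.19 for genes at least 1.5-fold induced in HepG2 and -0.15 for genes at least 4-fold induced.

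HepG2 grouped with neither line throughout. It induced all 20 core hypoxia genes. Of the 21 ATF4 genes it induced 5 and repressed 8, and of the 24 cholesterol genes it repressed 18, while the difference between its response and that of HKC-8 was not tested. Among genes with a difference of at most -1, 40.6% of 234 were induced in HepG2, and among those of at least 1, 53.8% of 52 were, against 19.5% of all 11418 genes measured in the 3 lines. APOL1, PLIN2 and ADM rose in HepG2 by 2.69, 2.43 and 3.05. ERRFI1 rose there by 1.46 and VLDLR by 1.99.

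**Figure D4:**
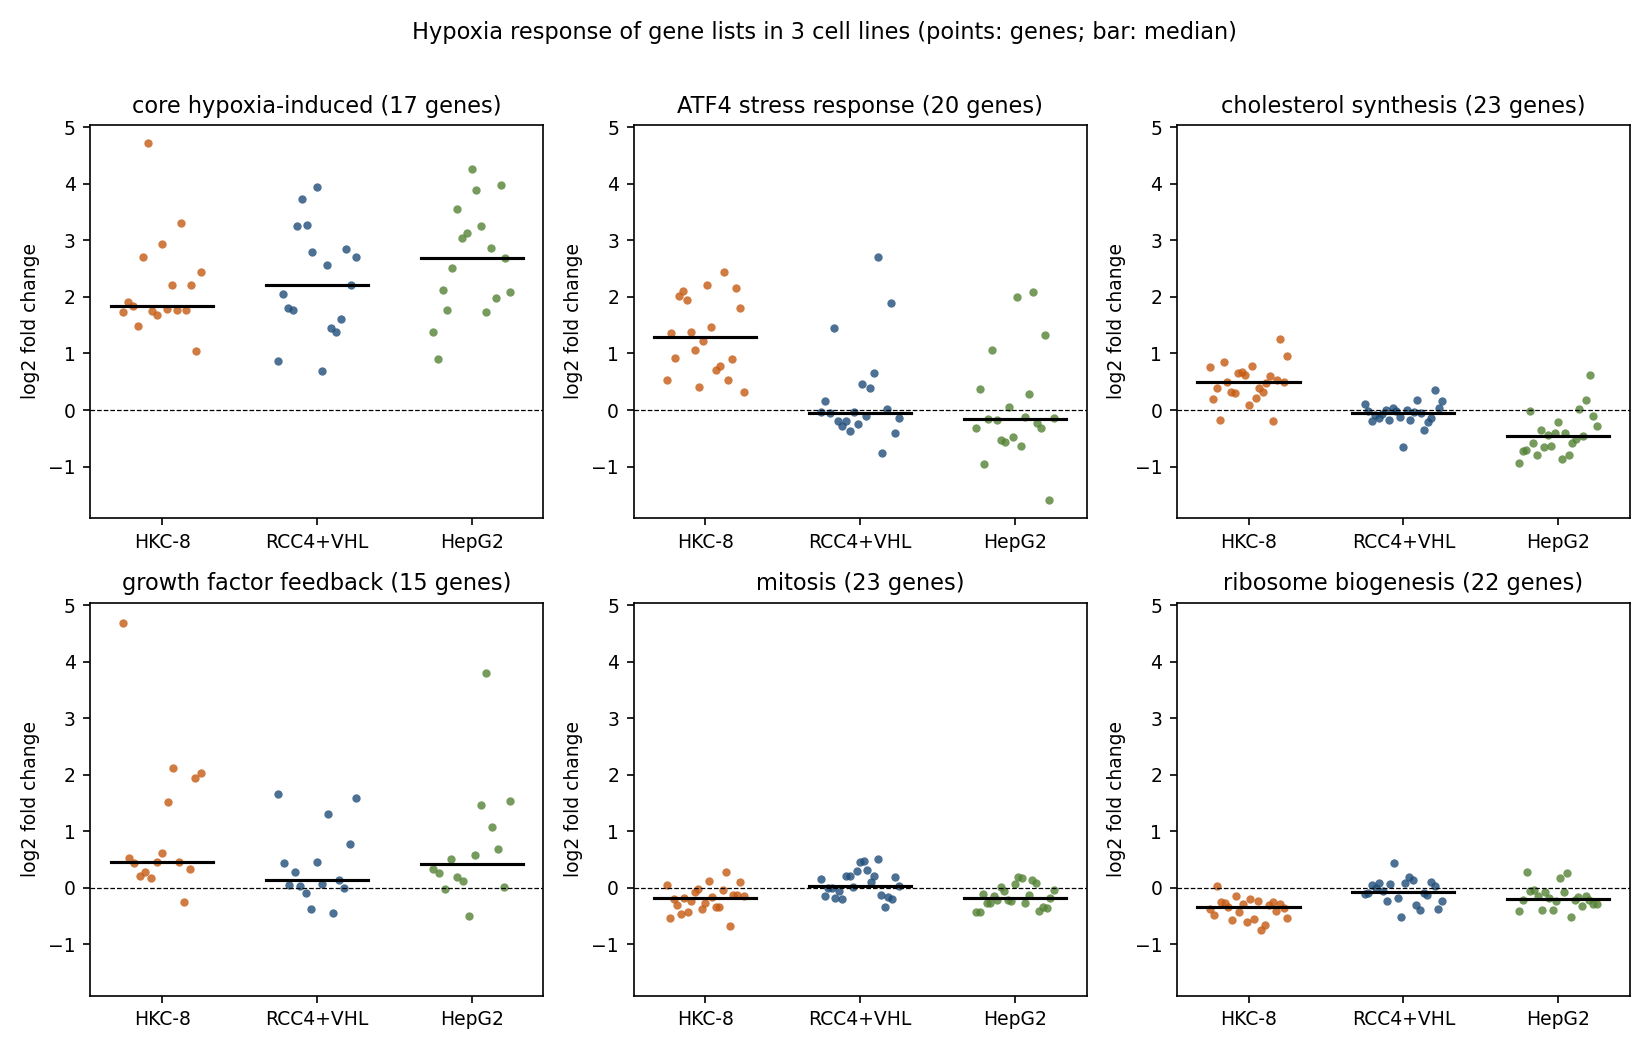
Log2 fold change of hypoxia over normoxia (y axis) of the members of 6 gene lists measured in both kidney lines, in HKC-8, RCC4+VHL and HepG2; points are genes and bars are medians. The medians of ATF4 and cholesterol genes lie above 0 in HKC-8 and around or below 0 in the others. Single members depart from this, such as TRIB3, DDIT4 and STC2, which rise in RCC4+VHL. Core hypoxia genes lie above 0 in all 3 lines.

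The counts of the remaining lists stand beside a background of 7.29% of genes more negative and 7.87% more positive in RCC4+VHL. The 40 nuclear-encoded respiratory chain genes had 1 call in each direction (2 negative and 3 positive with the block). Hypoxia repressed 7 of them in HKC-8 and 27 in RCC4+VHL, where 8.08% and 22.3% of genes tested were repressed. The HKC-8 count was 14 with the block, 2 without normoxia sample 1 or 2 or hypoxia sample 1 or 3, 4 without normoxia sample 3 and 12 without hypoxia sample 2, and a fit of all 18 samples gave 13 and 10; the spread between samples differed between the lines, and this contrast of counts is not a difference in response. Cytosolic ribosomal protein genes had 1 positive call among 30 (0 negative and 3 positive at an unadjusted p under 0.05, 1 and 6 with the block). Mitophagy and autophagy genes had 2 and 2 among 15 (negative, then positive, and 6 and 3 with the block), unfolded protein response genes 2 and 3 among 20 (4 and 5 with the block), and DNA repair genes 1 and 2 among 18 (1 and 6 with the block). Angiogenic and vasoactive genes had 3 and 2 among 23 (5 and 6 with the block), inflammatory genes 2 and 3 among 18 (2 and 5 with the block), interferon-stimulated genes 2 and 0 among 21 (5 and 0 unadjusted, 8 and 0 with the block), and pH and carbonic anhydrase genes 2 and 0 among 10 (2 and 1 unadjusted). Iron handling genes had 0 and 3 among 11 (1 and 5 unadjusted, 2 and 5 with the block), and MYC network genes 4 and 1 among 10 (5 and 2 with the block). Histone and DNA demethylases had 4 and 1 among 18 (4 and 2 with the block), including KDM4B, which rose by 1.58 and 0.74 (difference -0.84 ± 0.13, adjusted p = 0.0012). Genes linked to HIF-2 in renal carcinoma had 3 and 2 among 11, and IGFBP3, an IGF-binding protein in that list, rose by 2.12 and 1.30 (difference -0.82 ± 0.19, adjusted p = 0.0116). Of the marker lists, 1 of 12 proximal tubule genes tested and 2 of 13 kidney lineage genes were more negative (5 negative and 2 positive kidney lineage genes with the block). The 3 hepatocyte and 6 endothelial and leukocyte genes tested had 0 calls in edgeR and in DESeq2. At an unadjusted p under 0.05 in edgeR the hepatocyte genes had 0 and 0 and the endothelial and leukocyte genes 1 negative and 0 positive. Small counts moved between the fits that left out 1 of the 12 samples, with 1 to 5 negative interferon-stimulated genes, 2 to 5 negative mitophagy and autophagy genes, 0 to 4 positive inflammatory genes, 1 to 4 positive unfolded protein response genes and 0 to 4 positive respiratory chain genes.

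**Figure D5:**
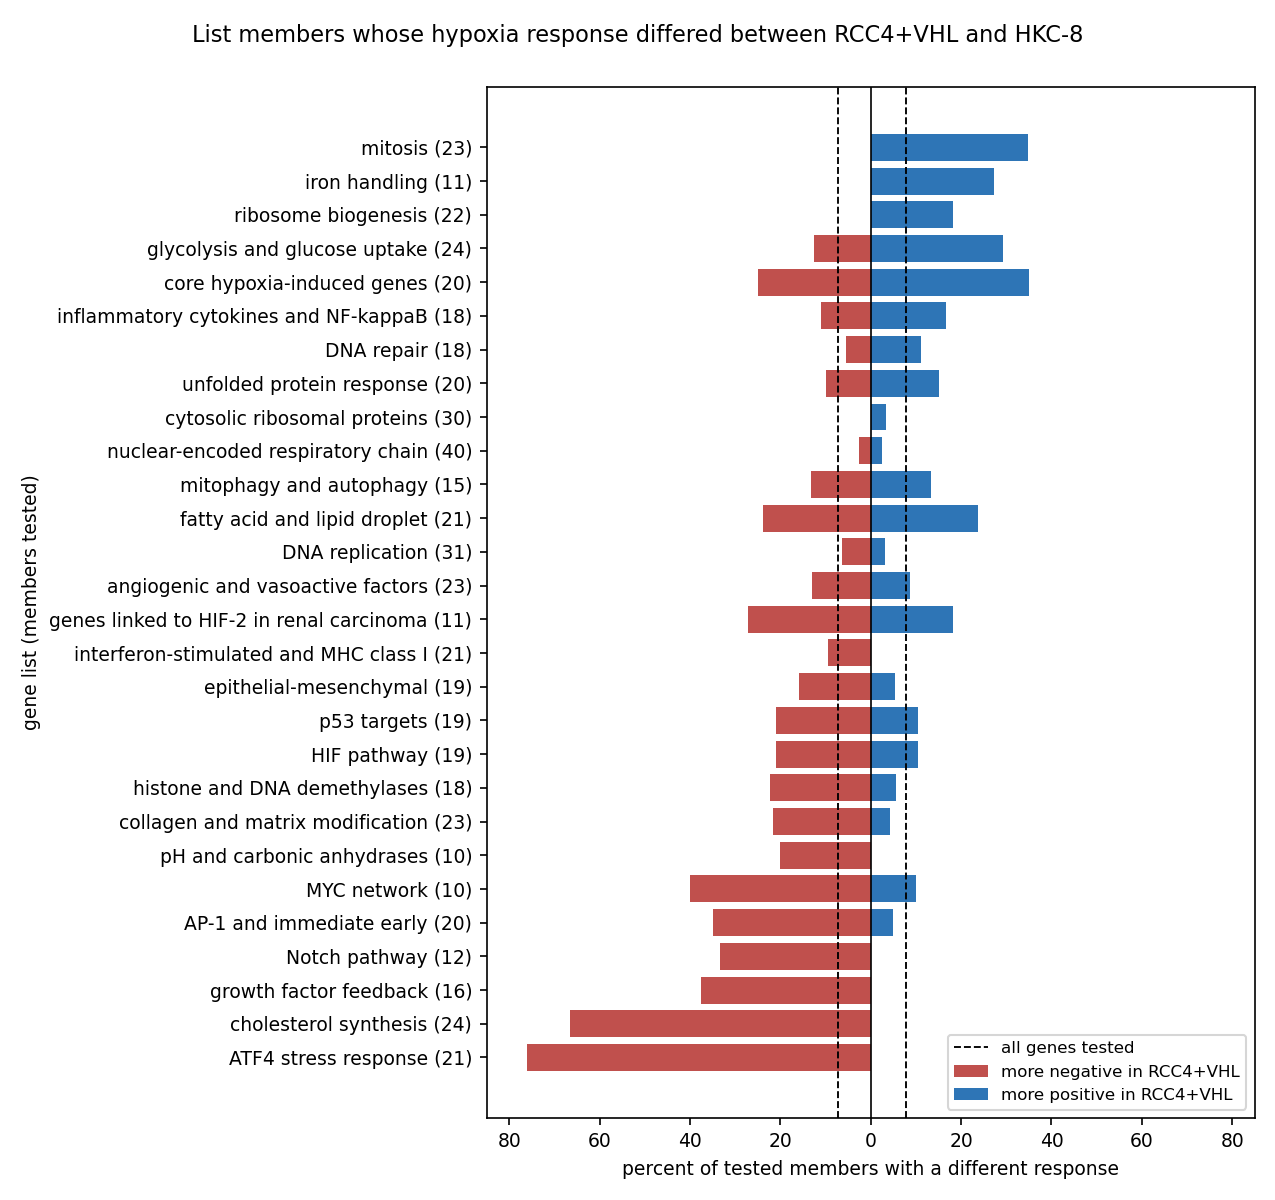
Percent of the tested members of each list whose response was more negative (red, to the left) or more positive (blue, to the right) in RCC4+VHL than in HKC-8, with the number tested in brackets and dashed lines at the shares of all genes, 7.29% and 7.87%. ATF4 stress response and cholesterol synthesis extend farthest to the left, and core hypoxia-induced genes and mitosis farthest to the right.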

How the data were processed

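The deposited files hold raw counts per gene, which the authors made from polyA+ RNA libraries by trimming with Trim Galore 0.3.3, aligning to GRCh37 with TopHat2 2.0.8b and Bowtie 1.0.0, keeping uniquely mapped fragments with SAMtools 0.1.19 and counting them with HTSeq 0.5.4p3. Counts of the 12 kidney samples were filtered with filterByExpr, scaled by TMM and fitted over 4 groups in edgeR 4.0.16 (R 4.3.3). The difference between responses was tested as the interaction of line and oxygen, and each line's response in its own fit of 6 samples, by edgeR's quasi-likelihood test with Benjamini-Hochberg adjustment over all genes tested. HepG2 was fitted apart. Two-sided p-values are given.

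Named genes were HIF1A, EPAS1, ARNT and VHL; the 10 most negative and 10 most positive differences among called genes measured in both lines with a mean of at least 1 CPM in every group; 5 genes in each opposite direction; 5 induced alike; up to 3 called members a list; 5 genes measured in 1 line only for each line; and the core hypoxia genes. The members and lists were chosen with earlier results of these data known. HKC-8 samples with the same replicate number were correlated across oxygen levels after group means were removed (r 0.17, 0.562 and 0.523) and RCC4+VHL samples were not (-0.0183, 0.0394 and 0.00845). The reported fits had no block, as the study's methods name none. Every HKC-8 pair of the same number was correlated above 0.1, but so was normoxia sample 1 with hypoxia sample 2 (r 0.112). The other unmatched HKC-8 pairs lay between -0.54 and 0.0551. The resemblance was thus clear for numbers 2 and 3 and weak for number 1. Counts with a block in HKC-8 alone, chosen after seeing the data, are given beside those it moved. Alternatives were DESeq2 1.42.0, its size factors, other filters, a replicate block, limma 3.58.1 with a variance per line, a fit of all 18 samples, libraries thinned to the smallest total, the difference taken from each line's own fit, and each sample left out in turn. Motifs were searched in RefSeq promoter windows (GRCh38.p14), and gene positions are in GRCh37.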

Additional observations from a re-analysis of the deposited data

Results flagged for a closer look

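The test of the difference between responses in RCC4+VHL and HKC-8 picked out 1118 genes more positive and 1036 more negative in RCC4+VHL, and 241 of them were called in opposite directions in the lines. Every value below is the RCC4+VHL log2 fold change minus the HKC-8 one for a gene of the report that was measured in both lines and passed that test.

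Called members of the amino-acid stress list that the report names had negative differences, with CHAC1 at -2.30, ASNS at -2.23, NUPR1 at -2.20, VLDLR at -1.76, SESN2 at -1.47, CEBPB at -1.30, ATF3 at -1.20, ATF4 at -0.57 and TRIB3 at -0.56. Those of cholesterol synthesis were MVD at -0.99, DHCR7 at -0.96 and LSS at -0.67.

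Growth factor, Notch, immediate early and cell cycle genes gave SPRY1 at -3.01, NRARP at -1.99, FGF11 at -1.96, ERRFI1 at -1.45, CDKN1A at -1.21, IRS2 at -1.18, JUND at -0.83, IGFBP3 at -0.82, HES1 at -0.82 and KLF10 at -0.78. Matrix, adhesion and other genes gave MYO7A at -4.20, C10orf10 at -3.22, ADM2 at -2.99, ARHGAP40 at -2.73, LONRF2 at -2.42, PRKCE at -2.20, SLC1A4 at -2.12, CRISPLD2 at -2.15, LINC00263 at -2.05, COL5A1 at -1.17, ITGA5 at -1.09, P4HA2 at -0.90 and LOX at 0.65.

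Hypoxia and HIF pathway genes fell on both sides. The negative ones were BHLHE40 at -1.92, PFKFB3 at -1.10, NDRG1 at -0.99, EPAS1 at -0.99, VEGFA at -0.87, KDM4B at -0.84, SIAH2 at -0.70 and KDM3A at -0.33. The positive ones were LDHA at 0.28, BNIP3 at 0.56, HIF1A at 0.93, PFKFB4 at 1.01, ANKRD37 at 1.12, ALDOC at 1.17, ADM at 1.52 and EDN1 at 2.63. SLC2A3 was also called, with a fitted 4.86 that ranged from 4.07 to 7.17 over the alternatives. Its normoxic RCC4+VHL values were all under the floor, so that size is no bound and is not ranked with the others.

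Members of the fatty acid and lipid droplet list with positive differences were PLIN2 at 1.29 and ELOVL6 at 1.30, and VLDLR, given above, belongs to that list too. The other positive ones were KIF23 at 0.54, TTK at 0.66, UTP20 at 0.75, WDR43 at 0.87, COL4A3BP at 1.31, NAV3 at 1.40, RAB42 at 1.40, AOX1 at 1.43, APOL1 at 1.45, TMEM106A at 1.48, SEMA3C at 1.61, LPCAT1 at 1.74 and KIAA0513 at 1.81.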

How the results depend on the processing

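Of the 76 genes examined singly, 67 were called and 64 of these kept their direction and their call under every alternative that tested them. LDHA, KDM3A and NAV3 kept their direction and lost the call under some. The uncalled differences of PGK1 and KIAA1244 changed sign when 1 sample was left out. That of PGK1 ranged from -0.068 to 0.014, the latter without HKC-8 hypoxia sample 1. That of KIAA1244 ranged from -0.015, without HKC-8 normoxia sample 2, to 0.17.

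With a replicate block in both lines, 4071 genes differed in response (2179 more positive and 1892 more negative in RCC4+VHL), 5794 changed in HKC-8 (3025 up, 2769 down), and 626 ran in opposite directions (317 up in HKC-8, 309 down). With the block in HKC-8 alone, chosen after seeing the data, the counts were 4419 (2352 and 2067), 5794 (3025 and 2769) and 609 (307 and 302). With all 18 samples in 1 fit, 5013 genes changed in HKC-8 (2503 up, 2510 down) and 3286 in RCC4+VHL (1867 up, 1419 down), where the lines share a single estimate of spread. Other causes were not tested.

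Leaving out each of the 12 samples in turn gave 1498 to 2916 genes with a different response (806 to 1517 more positive, 667 to 1399 more negative). Genes changed in HKC-8 numbered 1047 to 3203 (725 to 1861 up, 322 to 1467 down) and in RCC4+VHL 5566 to 6425 (2843 to 3335 up, 2723 to 3218 down). Opposite directions numbered 79 to 303 (55 to 170 up in HKC-8, 22 to 133 down). The ATF4 list gave 16 to 18 and the cholesterol list 10 to 17 more negative members. These fits have fewer samples.

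The lower depth of RCC4+VHL limits genes near its floor, such as SLC2A3 in normoxia. That floor was 0.0579 to 0.0714 CPM over library totals without TMM factors. Thinning to equal totals left 2127 genes with a different response.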
